A study of Mus musculus with 27 samples.

Results

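Heat shock chaperones are described here through 9 genes, taken as the entries of the deposited count table that carry the symbols Hspa1a, Hspa1b, Hspa8, Hsph1, Dnajb1, Hsp90aa1, Hspb1, Hspd1 and Hspe1. They are 9 of the 23420 genes in the table, and the rule uses no measured value. All 9 passed the filter on low counts in the fits of all organoid, all tissue and all 27 libraries. However, Hspb1 and Hspa1a were near 0 in jejunum and passed on their colon libraries, as did Hspa1b in the tissue fit. The 27 libraries came from C57BL/6 mice, an inbred laboratory strain, given water (control) or 15% ethanol (EtOH) during 8 weeks. Colon and jejunum, the stretch of small intestine between duodenum and ileum, were each profiled as tissue and as organoids, which are epithelial cultures grown from crypts by the method of Sato and Clevers. Colon organoids had 2 control and 2 ethanol libraries, jejunum organoids 4 and 4, colon tissue 4 and 4, and jejunum tissue 3 and 4. All mice were of the same strain, and no genetic change is labelled. The labels do not state the age or sex of the mice, whether animals were pooled, or whether the organoids themselves met ethanol in culture.

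Chaperones bind proteins that are not yet folded or have unfolded, and keep them from clumping until they fold. HSP70 proteins (Hspa1a, Hspa1b, Hspa8) work with J-domain proteins such as Dnajb1, which deliver clients and stimulate the ATPase, and with exchange factors such as Hsph1, while Hsp90aa1 acts on later folding steps and Hspb1 is a small ATP-independent holdase. Hspd1 (HSP60) and Hspe1 (HSP10) form the barrel and the lid of the mitochondrial chaperonin. Heat, oxidants and misfolded protein activate the transcription factor HSF1, which binds inverted GAA repeats called heat shock elements and raises the inducible members, whereas Hspa8 is made constantly.

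Hspa1a, Hspa1b and Hspb1 stood higher in colon than in jejunum, with no overlap between the segments in organoids or in tissue. Hspd1 and Hspe1 were lower in colon than in jejunum organoids, but higher in colon than in jejunum tissue, again with no overlap. Groups that did not overlap were common, at 53.5% and 67.5% of genes between the segments in control and ethanol organoids and 55.1% and 51.9% in tissue. Ethanol libraries differed from controls by edgeR's test in 1 of the chaperone genes, in 1 of the 4 kinds of sample. It was Hspd1, lower in ethanol colon organoids, while its partner Hspe1 was at -0.06 ± 0.29 (log2 ± SE). Of all genes tested there, 17.3% differed and 5.19% were lower, so this count says little of the chaperone genes as a set. The Hspd1 difference did not pass with only the colon organoid libraries fitted (adjusted p = 0.6294, edgeR) or with limma-voom (adjusted p = 0.6444).

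Promoter sequences are shown for the genes that separated the segments, with matches to a heat shock element in capitals. The letters searched were GAANNTTC and TTCNNGAA, which read the same on both strands, and a longer form in which either is followed by a further NNGAA or NNTTC unit that keeps the alternation, and which therefore contains them. The windows are those of RefSeq on GRCm38.p6 and run from 250 bases before to 50 bases after a gene's start, and the printed letters lie before the start. Hspa1a (chr17:34972157-34972406, minus strand) and Hspa1b (chr17:34959239-34959488, minus strand) are neighbouring copies 9951 bases apart, and 247 of their 250 upstream bases were identical. Hspb1 is shown from chr5:135887669-135887918 (plus strand). For Hspd1 and Hspe1, which are transcribed away from each other, a stretch between starts of the pair is shown (chr1:55087933-55088147, plus strand, the strand of Hspe1). The table has 2 windows for Hspd1, from different starts. The stretch lies upstream of Hspe1 and of the more internal Hspd1 start, and inside the annotated span of Hspd1, downstream of its outer start.
Hspa1a: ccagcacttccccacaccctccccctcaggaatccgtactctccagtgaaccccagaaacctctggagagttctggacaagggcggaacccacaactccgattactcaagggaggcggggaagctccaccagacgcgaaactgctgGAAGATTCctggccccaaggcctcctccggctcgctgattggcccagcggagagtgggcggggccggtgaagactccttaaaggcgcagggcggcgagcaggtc
Hspa1b: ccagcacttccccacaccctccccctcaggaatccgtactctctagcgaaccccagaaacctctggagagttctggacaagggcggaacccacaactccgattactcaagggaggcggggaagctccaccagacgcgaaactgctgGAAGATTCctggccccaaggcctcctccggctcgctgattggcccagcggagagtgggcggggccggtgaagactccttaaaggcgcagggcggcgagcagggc
Hspb1: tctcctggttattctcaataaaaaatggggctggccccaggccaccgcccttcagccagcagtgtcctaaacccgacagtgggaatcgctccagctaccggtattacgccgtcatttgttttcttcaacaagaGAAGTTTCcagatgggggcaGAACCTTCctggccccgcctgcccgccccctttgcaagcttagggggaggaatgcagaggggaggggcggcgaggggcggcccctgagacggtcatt
Hspd1-Hspe1: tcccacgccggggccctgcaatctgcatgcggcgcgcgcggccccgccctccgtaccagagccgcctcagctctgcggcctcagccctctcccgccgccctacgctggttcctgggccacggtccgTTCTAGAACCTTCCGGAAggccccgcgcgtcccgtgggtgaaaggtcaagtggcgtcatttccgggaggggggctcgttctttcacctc

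The Hspa1a and Hspa1b stretches hold the same single match, Hspb1 holds 2 separate matches, and the Hspd1-Hspe1 stretch holds an unbroken run of GAA and TTC units. The short motif was present in a window of 6 of the 7 members that have one in the table, the exception being Dnajb1. It was present in 15.1% of the 32851 promoter windows searched, which leave out a chromosome that holds no member. The longer motif was present in windows of 3 members (Hspd1, Hspe1 and Hsph1), the first 2 sharing it, and in 0.603% of the windows searched. For Hspd1 both held for the window of the internal start, while that of the outer start (chr1:55088194-55088493) held 0 matches of either. A match to these letters is a description of the sequence and does not show binding.

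A few facts of the libraries bear on the values. Total counts ran from 1337068 to 16312562 per library, but 18.3% to 84.3% of them fell on Rn45s, the precursor of ribosomal RNA, so levels are given as CPM, scaled to the counts outside Rn45s, which ran from 684906 to 7606668. The 5 smallest were the 3 control jejunum tissue libraries (684906 to 1510057) and replicate 2 of control and ethanol colon organoids (818240 and 1345224). The library kit reads 1 tag near the 3′ end of each transcript, so CPM can be compared between genes without a correction for length. Epcam, which marks epithelium, stood at 529 CPM or more in all 27 libraries. The muscle genes Acta2 and Myh11 reached at most 14.1 CPM in organoids and were at least 74.6 CPM in tissue. Car1, a colon gene, was at least 912 CPM in colon organoids and at most 1.32 CPM in jejunum organoids, and Sis, a jejunum gene, at most 45.4 CPM and at least 376 CPM. In jejunum tissue control replicate 2 held 518 CPM of Car1, and the other 6 libraries at most 117 CPM. Among colon tissue, replicate 1 of each treatment and ethanol replicate 2 stood apart: Car1 was 486 to 1870 CPM there and 15910 to 27650 CPM in the other 5, and the distal gene Hoxb13 was 182 to 800.5 CPM there and at most 0.274 CPM in the other 5. Among colon organoids, control replicate 2 held 37.9 CPM of Hoxb13 and 99 CPM of the fibroblast gene Col1a1. The other colon organoid libraries held 0 CPM of Hoxb13 and at most 6.69 CPM of Col1a1. The labels do not say which part of the colon was taken. The libraries of a group carry separate donor numbers, which recur in every group and under both treatments, so p-values measure the spread between libraries.

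**Figure D1:**
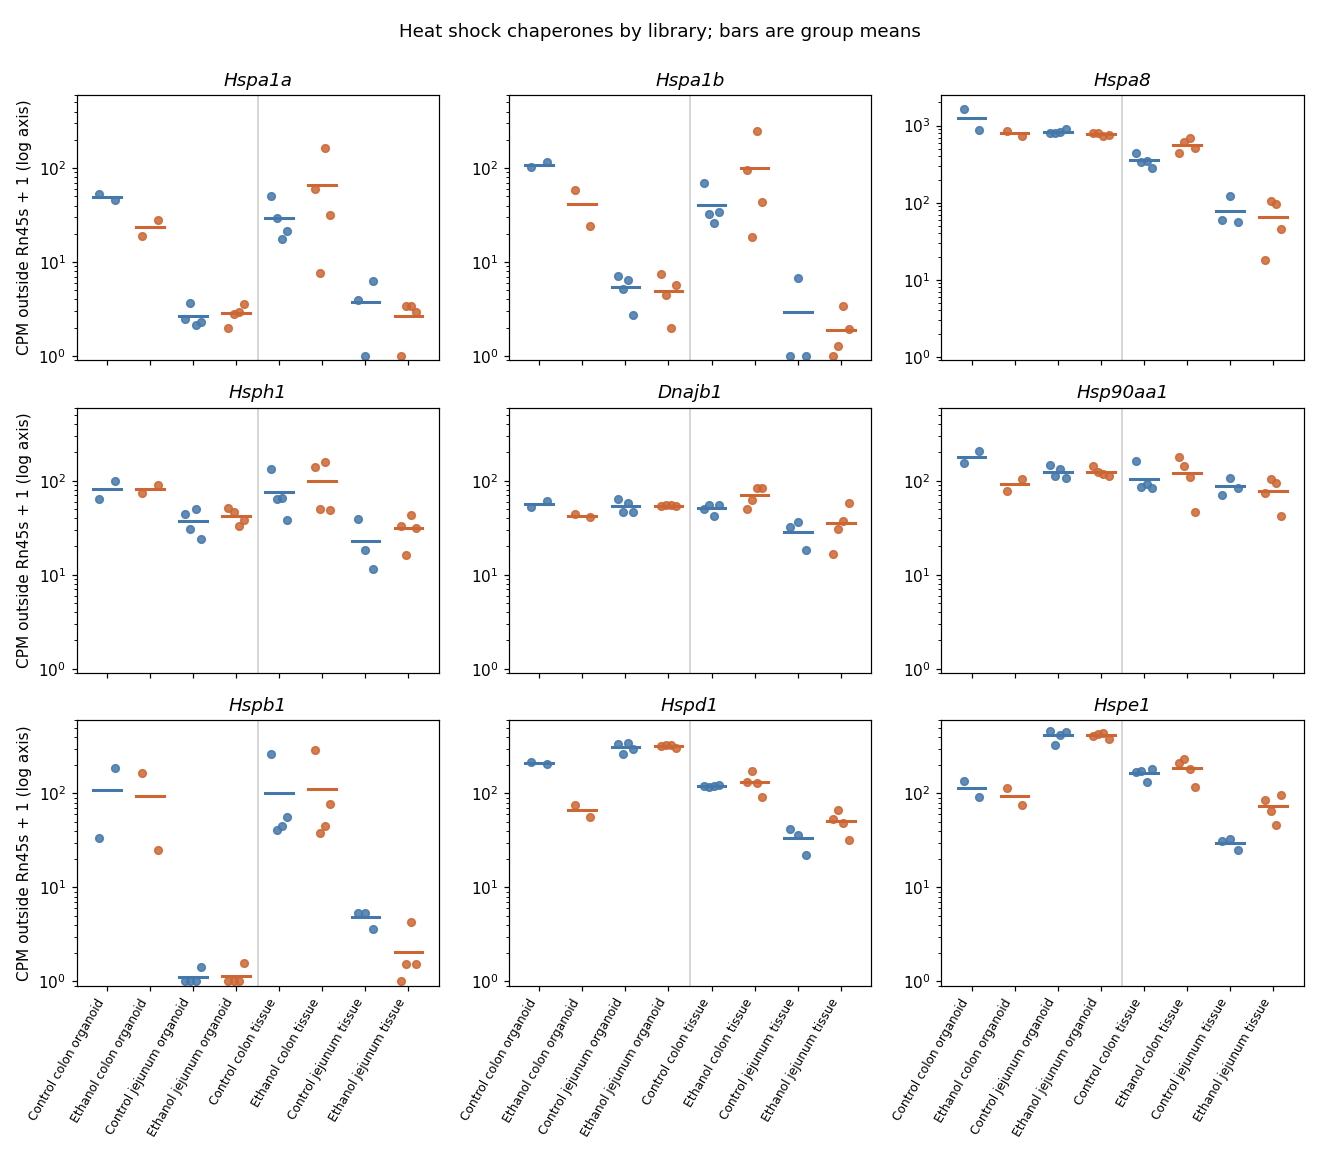
Level of each of the 9 genes in each of the 27 libraries, as CPM outside Rn45s plus 1 on a log axis, by group; points are libraries, blue for control and orange for ethanol, and horizontal bars are group means. Hspa1a, Hspa1b and Hspb1 are near the bottom of the axis in all jejunum groups, and Hspd1 and Hspe1 are highest in jejunum organoids and lowest in jejunum tissue.

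The inducible HSP70 genes stood higher in colon than in jejunum. Hspa1a (17:34969190-34972156, minus strand, GENCODE vM21) stood at 52.1 and 45.2 CPM in control colon organoids and at 17.9 and 26.8 CPM in ethanol colon organoids. In jejunum organoids it was 1.47, 2.69, 1.15 and 1.3 CPM in controls and 0.983, 1.83, 1.98 and 2.62 CPM after ethanol. Every colon organoid library lay above every jejunum organoid library. In colon tissue Hspa1a was 49.1, 28.3, 16.7 and 20.3 CPM in controls and 58.2, 6.74, 162 and 30.5 CPM after ethanol. In jejunum tissue it was 2.9, 0 and 5.3 CPM in controls and 0, 2.39, 2.38 and 1.97 CPM after ethanol. The ethanol colon tissue libraries spread the widest, with replicate 3 highest and replicate 2 lowest, and the lowest still lay above all jejunum tissue.

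Hspa1b (17:34956436-34959238, minus strand) followed the same division, at a higher mean level in each organoid group. It stood at 101 and 115 CPM in control colon organoids, 57.7 and 23 CPM in ethanol colon organoids, and between 0.989 and 6.49 CPM in the 8 jejunum organoid libraries. Colon tissue held 69.1, 31.7, 25.2 and 33.1 CPM in controls and 95.1, 17.4, 246 and 43.1 CPM after ethanol. Jejunum tissue held 0, 5.84 and 0 CPM in controls and 0, 0.266, 2.38 and 0.92 CPM after ethanol, which is 4 counts in all for the controls. The ethanol colon tissue library that was highest for Hspa1a (replicate 3) was highest for Hspa1b as well, and replicate 2 was lowest for both. The coding sequences of Hspa1a and Hspa1b are nearly the same, and Gm20481 lies antisense to Hspa1a, so how reads were split among them is uncertain without the strand setting. Their sum does not depend on the split between the copies: it was 156 ± 5.21 CPM (SD, n = 2) in control colon organoids, 6.03 ± 2.03 CPM (n = 4) in control jejunum organoids, 68.4 ± 34.1 CPM (n = 4) in control colon tissue and 4.68 ± 1.56 CPM (n = 3) in control jejunum tissue.

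By edgeR's quasi-likelihood test with Benjamini-Hochberg adjustment over all genes, 6 of the 9 genes were called between colon and jejunum in control organoids, 4 higher and 2 lower in colon, where 49.8% of the 12922 genes tested were called (23.8% higher, 26.1% lower). In ethanol organoids it was again 4 higher and 2 lower, where 45.9% were called (25.6% higher, 20.3% lower). In tissue 5 were called in controls and 6 after ethanol, all higher in colon. Of the 13434 genes tested there, 42.1% were called in controls (25% higher, 17.1% lower) and 48.1% after ethanol (26% higher, 22.1% lower). With so many genes called, the counts say little of these 9 as a set. Hspa1a and Hspb1 in organoids, and Hspa1a, Hspa1b and Hspb1 in tissue, passed the filter on low counts only through colon libraries. These counts are therefore no support, and for those genes the sizes below are a description, with no p given. Colon tissue also held more muscle and stroma: 4 of 8 smooth muscle markers and 5 of 8 fibroblast markers were called higher than in jejunum tissue in controls, and 8 and 6 after ethanol, and their part in the tissue differences was not tested. Hspa1a was 4.59 ± 0.47 (log2 fold change ± SE, edgeR) higher in control colon than control jejunum organoids and 3.53 ± 0.47 higher in the ethanol pair. In tissue it was 4.55 ± 0.89 higher after ethanol (edgeR), or 3.5 without the ethanol colon tissue library of replicate 3. Limma-voom gave 4.12 and did not call it. In control tissue it was 2.66 ± 1.09, which missed the threshold. It passed with DESeq2 (2.71), with plain library sizes (3.15) and with only the compared groups fitted (2.62). Hspa1b was 4.32 ± 0.58 higher in control and 3.30 ± 0.58 in ethanol colon organoids (adjusted p = 0.0001062 and 0.0008292, edgeR), the second falling to 2.37 without the ethanol colon organoid library of replicate 1. In ethanol tissue Hspa1b was 6.02 ± 0.98 higher (edgeR), or 5.02 without colon replicate 3 and 6.90 without jejunum replicate 3. In control tissue it was 4.57 ± 1.35 higher in colon (edgeR). The call of that fit was lost without control jejunum tissue replicate 1 (3.88) or 3 (3.84), and with limma-voom (4.97). The fitted value was 10.28 without replicate 2, which held all the counts. The group means were 39.8 and 1.95 CPM. As a ratio of pooled counts over pooled depth outside Rn45s, which gives deeper libraries more weight, Hspa1b in control tissue was 39-fold higher in colon, with a 95% exact interval from counting error alone of 15.2 to 143. The ratio of the group means was 20.4. A lower level in bulk RNA can be fewer cells of a type or less RNA per cell, which cannot be told apart here. In the order of group means the 4 colon groups came first for both genes. Neighbouring groups overlapped among the colon groups and among the jejunum groups, and there was a gap only between the segments.

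Hspa8, the constitutive HSP70 that carries much of everyday folding and uncoating of clathrin, was the most abundant member in organoids and in colon tissue. It stood at 1641 and 885 CPM in control and 842 and 739.7 CPM in ethanol colon organoids, and at 735 to 903 CPM in the 8 jejunum organoid libraries. Colon tissue held 442, 334, 347 and 284 CPM in controls and 444, 604, 685 and 504 CPM after ethanol, and every ethanol library lay above every control one, the closest pair by little. Jejunum tissue held 58.1, 119.7 and 55 CPM in controls and 17.1, 104, 94.6 and 44.6 CPM after ethanol, below all other groups. Colon exceeded jejunum in tissue by 1.81 ± 0.45 in controls and 2.53 ± 0.41 after ethanol (log2, adjusted p = 0.004261 and 9.032e-05, edgeR). In organoids the same contrast was 0.35 ± 0.24 and -0.02 ± 0.24 (adjusted p = 0.2482 and 0.9609, edgeR). The first of these rested on the libraries: without control colon organoid replicate 2 it was 0.79 with adjusted p = 0.002029 by edgeR, and without replicate 1 it was -0.30 and not called. With plain library sizes it passed the threshold at 0.60 (adjusted p = 0.0246, edgeR). In the order of groups the 4 organoid groups came first and overlapped one another, followed by ethanol colon tissue, control colon tissue and both jejunum tissue groups. The colon tissue groups lay apart from each other and from jejunum tissue, and the jejunum tissue groups overlapped.

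Hsph1, an HSP110 protein that exchanges the nucleotide of HSP70, stood at 63.4 and 97.8 CPM in control and 72.8 and 89.2 CPM in ethanol colon organoids. Jejunum organoids held 43.8, 29.6, 49.1 and 23 CPM in controls and 49.7, 45, 32.3 and 37.2 CPM after ethanol, all below the colon organoids. Colon tissue held 132, 63.6, 64.5 and 36.9 CPM in controls and 138, 49.1, 159 and 48.4 CPM after ethanol, beside 37.7, 17.5 and 10.6 CPM in control and 31.9, 15.4, 42.8 and 30.2 CPM in ethanol jejunum tissue. The segments overlapped in control tissue and not in ethanol tissue. The colon excess was 0.84 ± 0.32 in control and 0.91 ± 0.31 in ethanol organoids (log2, adjusted p = 0.04406 and 0.03077, edgeR). Both calls were fragile, and limma-voom made neither (0.82 and 0.88, adjusted p = 0.5864 and 0.1253). In control organoids leaving out control colon replicate 2 or control jejunum replicate 2 or 4 gave 0.62, 0.74 and 0.69 (adjusted p = 0.1512, 0.0975 and 0.09734, edgeR). In ethanol organoids leaving out colon replicate 1 or 2, or jejunum replicate 2, 3 or 4, gave 0.97, 0.76, 0.95, 0.81 and 0.81 (adjusted p = 0.08162, 0.1638, 0.05517, 0.0778 and 0.08645, edgeR). In tissue the excess was 1.28 ± 0.56 in controls and 1.14 ± 0.48 after ethanol (adjusted p = 0.07873 and 0.05909, edgeR). These passed the threshold without control colon replicate 4 or control jejunum replicate 1 (1.5 and 2.04), and without ethanol colon replicate 2 or 4 or ethanol jejunum replicate 3 (1.37, 1.35 and 1.4). They also passed it with DESeq2 (1.24 and 1.25, adjusted p = 0.04978 and 0.0208) and with plain library sizes (1.74 and 1.71, adjusted p = 0.02256 and 0.008419, edgeR). All 4 colon groups had higher means than all 4 jejunum groups, with overlap between every pair of neighbours in that order.

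Dnajb1, the J-domain partner of HSP70, was called in none of the 16 comparisons. It stood at 52.1 and 59.9 CPM in control and 42.9 and 40.1 CPM in ethanol colon organoids, and at 45.3 to 62.4 CPM in the 8 jejunum organoid libraries. Colon tissue held 49.3, 54.6, 41.4 and 54.4 CPM in controls and 48.7, 62, 83.1 and 82.6 CPM after ethanol. Jejunum tissue held 31.2, 35 and 17.2 CPM in controls and 15.7, 30, 36.1 and 56.5 CPM after ethanol. Every pair of neighbours in the order of its group means overlapped. Its segment contrasts lay between -0.41 ± 0.23 (ethanol organoids) and 0.47 ± 0.38 (control tissue) on the log2 scale. With plain library sizes in place of TMM the ethanol tissue contrast was 0.98 (adjusted p = 0.01168, edgeR).

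Hsp90aa1, the inducible cytosolic HSP90, was likewise not called between the segments. It stood at 155 and 205 CPM in control colon organoids, above every library of the other organoid groups, and at 77.4 and 104 CPM in ethanol colon organoids. Jejunum organoids held 146, 112, 133 and 105 CPM in controls and 144, 124, 116 and 112 CPM after ethanol. Colon tissue held 160.0, 84.5, 90.5 and 82.2 CPM in controls and 178, 142, 109 and 45 CPM after ethanol, and jejunum tissue held 40.9 to 107 CPM. Apart from control colon organoids, neighbouring groups overlapped throughout. These orders are by CPM, whereas the fits use TMM scaling. On the TMM scale the mean was 130 in control colon organoids, beside 118 and 116 in control and ethanol jejunum organoids. In tissue it was 96.4 and 106 in control and ethanol colon, beside 108 and 103 in control and ethanol jejunum. The colon against jejunum contrast was 0.24 ± 0.21 and -0.52 ± 0.22 in control and ethanol organoids and -0.15 ± 0.35 and 0.03 ± 0.32 in tissue (log2, adjusted p = 0.3629, 0.06953, 0.7477 and 0.9397, edgeR). With only the compared groups fitted, the ethanol organoid contrast passed the threshold (-0.52, adjusted p = 0.04159, edgeR).

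Hspb1 (5:135887919-135889563, plus strand), the small heat shock protein also known for guarding actin, was nearly lacking in jejunum organoids. It stood at 32.9 and 184 CPM in control and 162 and 23.8 CPM in ethanol colon organoids. In jejunum organoids 6 of the 8 libraries held no count and the other 2, replicate 4 of each treatment, held 2 counts each (0.434 and 0.582 CPM). Colon organoid libraries differed among themselves several-fold within each treatment, yet the lowest lay far above all jejunum organoids. Colon tissue held 264, 39.6, 44.2 and 54.6 CPM in controls and 286, 37, 43.7 and 76.3 CPM after ethanol, with replicate 1 far above the others under both treatments. Jejunum tissue held 4.36, 4.38 and 2.65 CPM in controls and 0, 0.531, 3.24 and 0.526 CPM after ethanol. The 4 jejunum groups therefore lay below the 4 colon groups with a gap, and neighbours within each segment overlapped.

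Hspb1 averaged 109 CPM in control colon and 0.109 CPM in control jejunum organoids, and 92.9 and 0.145 CPM in the ethanol pair. As a ratio of pooled counts over pooled depth outside Rn45s, with a 95% exact interval from counting error alone, it was 705-fold higher in colon in controls (193 to 5860) and 938-fold higher after ethanol (258 to 7770). The counts behind the lower side were 2 in each treatment, so the size is loosely set. The ratios of the group means, 1000 and 639, put the treatments in the other order, so no order is read from either. The organoid and tissue values are a description, with no p given, since in both the gene passed the filter only through the colon libraries. In tissue the fitted difference was 4.24 ± 1.13 in controls and 5.92 ± 1.0 after ethanol (log2, edgeR). The call of the first was lost with limma-voom (3.72). The high colon tissue libraries carried more muscle: the summed level of 8 smooth muscle markers was 14610 and 20020 CPM in replicate 1 of control and ethanol and 3568 to 4540 CPM in the other 6, and all 8 markers were above 1 CPM in each of the 8 libraries. The 8 fibroblast markers moved with it, at 3151 and 2195 CPM against 553 to 1149 CPM. Without both replicate 1 libraries the tissue difference was 3.08 ± 0.63 in controls and 4.90 ± 0.55 after ethanol (edgeR). Leaving out control colon replicate 1 alone gave 3.26, leaving out ethanol colon replicate 1 alone gave 4.90, and leaving out ethanol jejunum replicate 3 gave 7.33. In colon organoids muscle markers were nearly lacking (0.982 to 33.4 CPM in sum, with Acta2 at most 5.95 CPM), and the organoid libraries highest in Hspb1, control replicate 2 and ethanol replicate 1, held 12.2 and 4.22 CPM of them. Markers of other cells were also higher in colon than in jejunum organoids: the summed fibroblast markers were 19.7 to 127 CPM beside 0.59 to 6.88 CPM, and the summed immune markers 41.5 to 488 CPM beside 3.21 to 10.5 CPM. Control colon organoid replicate 2 was also the only colon organoid library with Hoxb13 (37.9 CPM). The part of these markers in the Hspb1 difference was not tested.

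**Figure D2:**
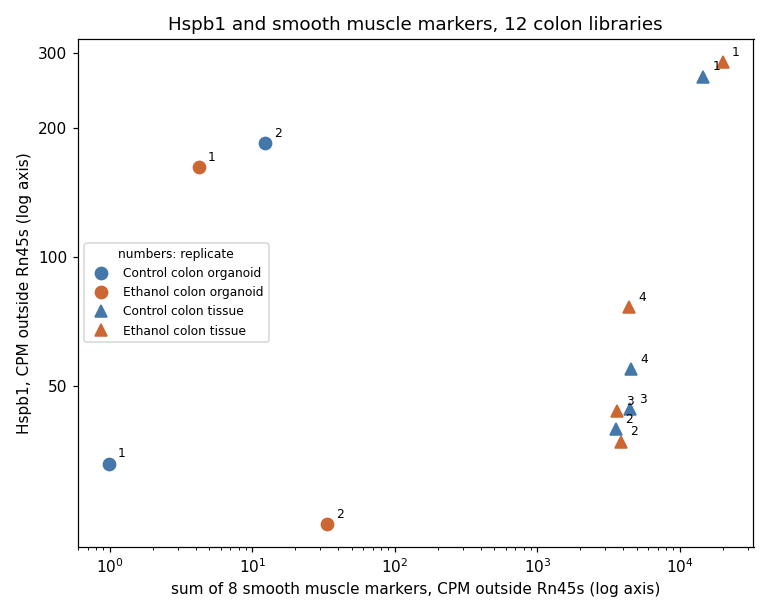
Hspb1 against the sum of 8 smooth muscle markers in the 12 colon libraries, both as CPM outside Rn45s on log axes; circles are organoids, triangles tissue, blue control and orange ethanol, and the digits are replicate numbers. Replicate 1 of both tissue groups is high on both axes, while organoids reach 162 and 184 CPM of Hspb1 with muscle marker sums of 4.22 and 12.2 CPM.

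The mitochondrial chaperonin genes went in opposite directions in organoids and tissue. Hspd1 (1:55077835-55088243, minus strand) stood at 214 and 204 CPM in control and 75.2 and 55.8 CPM in ethanol colon organoids. In jejunum organoids it was 339, 264, 343 and 299 CPM in controls and 319, 326, 329 and 305 CPM after ethanol. Jejunum organoids lay above all colon organoids. Colon tissue held 119, 117, 119 and 123 CPM in controls, a narrow range, and 133, 174, 127 and 90.5 CPM after ethanol. Jejunum tissue held 40.6, 35 and 21.2 CPM in controls and 52.4, 66.1, 47.7 and 31.3 CPM after ethanol, below all colon tissue. Hspe1 (1:55088132-55091307, plus strand), whose annotated span overlaps that of Hspd1 by 112 bases at their starts, stood at 134 and 91.7 CPM in control and 114 and 73.6 CPM in ethanol colon organoids. In jejunum organoids it was 456, 329, 419 and 453 CPM in controls and 408, 424, 439.7 and 382 CPM after ethanol, again above all colon organoids. Colon tissue held 167, 173, 130.3 and 181 CPM in controls and 208, 231, 181 and 115 CPM after ethanol. Jejunum tissue held 30.5, 32.1 and 23.8 CPM in controls and 84.3, 64.8, 45.6 and 96.4 CPM after ethanol, below all colon tissue. In the order of group means, Hspd1 was highest in the jejunum organoid groups, which overlapped, then in control colon organoids and then in both colon tissue groups, with gaps between these steps. Ethanol colon organoids and both jejunum tissue groups followed and overlapped. Hspe1 was highest in both jejunum organoid groups, with a gap to the next 5 groups, which overlapped as neighbours, and control jejunum tissue lay apart at the bottom.

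Hspd1 was 0.85 ± 0.19 lower in control colon than control jejunum organoids, a log2 fold change of -0.85 (adjusted p = 0.003499, edgeR), and the ethanol pair differed by -2.32 ± 0.21 (adjusted p = 8.494e-06). Hspe1 differed by -2.13 ± 0.28 and -2.17 ± 0.28 (adjusted p = 8.733e-05 and 9.34e-05, edgeR). In control organoids limma-voom called neither Hspd1 (-0.83, adjusted p = 0.2917) nor Hspe1 (-2.08, adjusted p = 0.06488). In tissue the sign was the other: Hspd1 was 1.48 ± 0.27 and 0.86 ± 0.23 higher in colon (control and ethanol, adjusted p = 0.000358 and 0.005292, edgeR), and Hspe1 2.09 ± 0.28 and 0.77 ± 0.23 higher (adjusted p = 1.596e-05 and 0.0109). Rn45s moved with this: it took 53.4% to 84.3% of the counts in jejunum tissue, 18.3% to 43% in colon tissue and 19.7% to 30.2% in jejunum organoids, and its part in the change of sign was not tested. The difference of the contrast itself, organoids minus tissue, was fitted over all 27 libraries as a comparison added after the data were seen. It was -2.44 ± 0.36 for Hspd1 and -4.32 ± 0.42 for Hspe1 in controls (adjusted p = 7.786e-06 and 2.35e-08, edgeR), and -3.13 ± 0.35 and -2.89 ± 0.38 after ethanol (adjusted p = 1.272e-07 and 1.474e-06). Hspa8 was the other member called, at -1.56 ± 0.57 and -2.50 ± 0.55 (adjusted p = 0.02917 and 0.0007422, edgeR), so 3 of the 9 were called in each, where 40.5% and 40.6% of the 14785 genes tested were called (25.3% and 16.9% lower). The Hspa8 value in controls moved to -1.11 (adjusted p = 0.1806, edgeR) without control colon organoid replicate 2, to -2.27 without replicate 1, and to -1.42 (adjusted p = 0.07058 and 0.07321) without control jejunum tissue replicate 1 or 3, and limma-voom did not call it (-1.74, adjusted p = 0.1162). For Hspb1, at 2 counts in jejunum organoids of each treatment, the same difference was 4.84 in controls and 3.31 after ethanol, and neither was called (edgeR). Without control colon tissue replicate 1 it was 5.81 in controls. Without both libraries of number 1 it was 5.81 and 4.16. These refits passed the threshold, but Hspb1 passed the filter only through colon libraries, so they are no support and no p is given. Hspa1b after ethanol (-2.67) passed the threshold at -3.02 to -3.56 in fits that left out 1 library. These were the fits without ethanol jejunum organoid replicate 3, ethanol colon tissue replicate 4 or 2, or ethanol jejunum tissue replicate 3. Dnajb1 after ethanol (-0.78) passed it at -1.15 without ethanol jejunum tissue replicate 4.

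**Figure D3:**
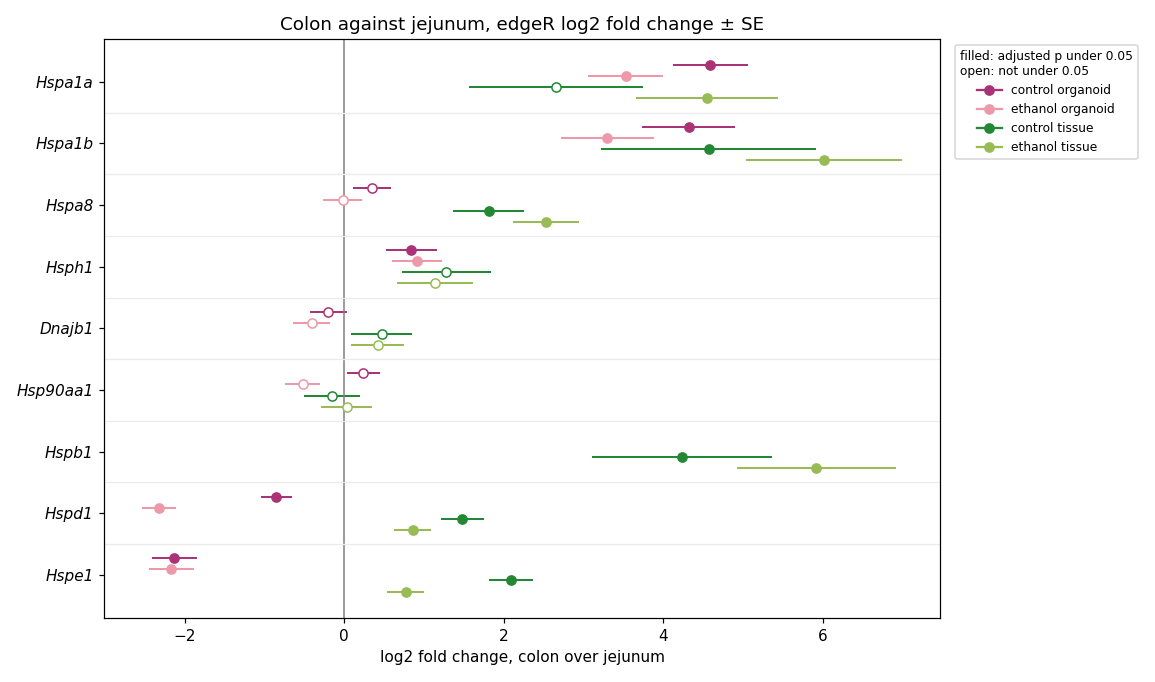
Log2 fold change of colon over jejunum with its SE from edgeR, for each gene in control and ethanol organoids (purple, pink) and control and ethanol tissue (dark and light green); filled points have an adjusted p under 0.05, and Hspb1 in organoids is left out because its jejunum groups held 2 counts each. Hspd1 and Hspe1 lie to the left of 0 in organoids (-0.85 to -2.32) and to the right in tissue (0.77 to 2.09), while Hspa1a and Hspa1b lie to the right in all 4. Hspa1a in organoids and tissue, and Hspa1b and Hspb1 in tissue, passed the filter only through colon libraries, so their filled points are no support.

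The chaperonin barrel and lid were not held at a constant ratio. Hspe1 over Hspd1, both in CPM, was 0.625 and 0.449 in control colon organoids and 1.52 and 1.32 in ethanol colon organoids. It lay between 1.22 and 1.51 in the 8 jejunum organoid libraries and between 1.1 and 1.57 in the 8 colon tissue libraries. Control jejunum tissue held 0.75, 0.917 and 1.12, and ethanol jejunum tissue held 1.61, 0.98, 0.955 and 3.08. Control colon organoids were thus the 2 libraries with the lowest ratio of the 27, and ethanol jejunum tissue replicate 4 had the highest.

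**Figure D4:**
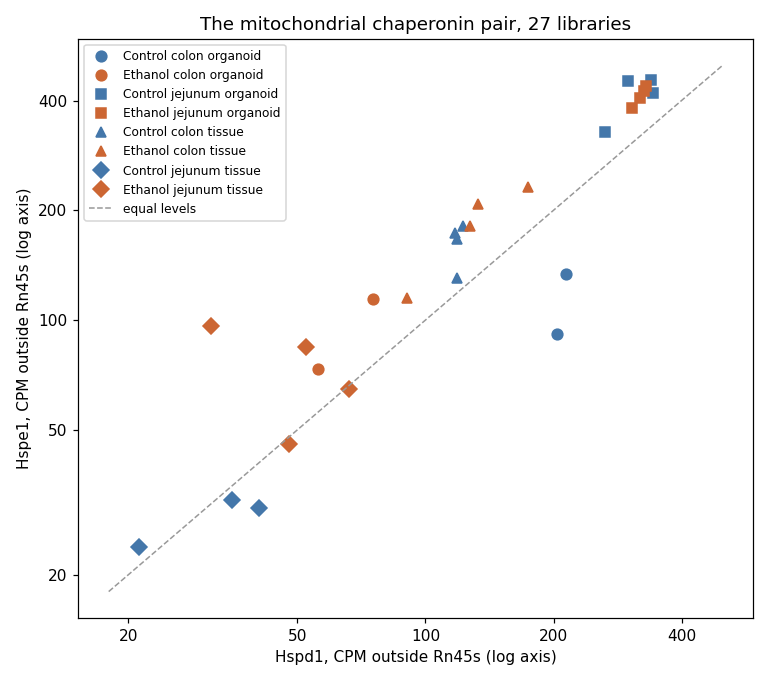
Hspe1 against Hspd1 in the 27 libraries, both as CPM outside Rn45s on log axes; circles are colon organoids, squares jejunum organoids, triangles colon tissue and diamonds jejunum tissue, blue for control and orange for ethanol, with a dashed line at equal levels. The control colon organoids (ratio 0.449 and 0.625) lie well under the line, and the jejunum organoids (1.22 to 1.51) lie together above it at the top right.

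The series asked how ethanol feeding changes the colon and its organoids, and in colon organoids 1 of the 9 chaperone genes was called, lower, where 17.3% of the 12922 genes tested were called and 5.19% were called lower. It was Hspd1, at -1.44 ± 0.22 on the log2 scale (adjusted p = 0.001714, edgeR): 209 ± 6.74 CPM in controls and 65.5 ± 13.8 CPM after ethanol (SD, n = 2 each). The fold was called in each fit that left out 1 library, but not when only the 4 colon organoid libraries were fitted (-1.38 ± 0.44, adjusted p = 0.6294, edgeR) nor by limma-voom with weights by group (-1.42 ± 0.57, adjusted p = 0.6444). The ethanol effect on Hspd1 differed between colon and jejunum organoids by -1.47 ± 0.27 (adjusted p = 0.006739, edgeR; with limma-voom -1.46 ± 0.58, adjusted p = 0.688), as 1 of 9 members, where 9.43% of genes were called, 2.23% in that direction and 7.2% in the other. Markers moved along with it: the summed level of 8 colon markers was 1060 and 2641 CPM in control and 8548 and 12730 CPM in ethanol colon organoids, and that of 8 epithelial markers was 6969 and 9932 CPM against 11200 and 11950 CPM. Called higher were 2 of 6 tested colon markers, 4 of 8 epithelial, 3 of 8 jejunum and 2 of 5 tested immune markers, and 1 epithelial and 1 jejunum marker were called lower. Control replicate 2 was the only colon organoid library with Hoxb13 (37.9 CPM). The part of these markers in the Hspd1 result was not tested.

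The other members gave no call in colon organoids. Control and ethanol libraries did not overlap for 6 members, Hspd1 among them, as for 40.5% of all genes with 2 against 2 libraries. Hsp90aa1 was 1 of these, at -0.76 ± 0.25 (adjusted p = 0.05294, edgeR), and passed the threshold with DESeq2 (-0.80, adjusted p = 0.01551) and with plain library sizes (-0.99, adjusted p = 0.01948, edgeR). Without control colon organoid replicate 1 it was -0.87 and passed as well (adjusted p = 0.01938, edgeR), as did its difference between segments (-0.86, adjusted p = 0.043). Hspa8 at -0.48 ± 0.28 passed it at -0.93 (adjusted p = 0.003618, edgeR) without control colon organoid replicate 2, which left the library of 1641 CPM alone in its group, and was 0.17 without replicate 1. Its difference between segments also passed without replicate 2 (-0.81, adjusted p = 0.02296, edgeR). Hspa1a and Hspa1b stood at -0.93 ± 0.53 and -1.16 ± 0.66 (adjusted p = 0.2541 and 0.2562, edgeR), with control libraries above ethanol libraries in both. Leaving out 1 library moved Hspa1b from -0.62 (without ethanol replicate 2) to -2.01 (without ethanol replicate 1). Hsph1 (0.25 ± 0.37), Dnajb1 (-0.20 ± 0.26) and Hspb1 (0.13 ± 0.88) were not called, and the Hspb1 groups overlapped fully. Single libraries decided the sign of Hspb1, from -1.89 without ethanol replicate 1 to 1.68 without control replicate 2.

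In jejunum organoids no member was called, nor was any gene (0% of 12922, 144 of them at an unadjusted p under 0.05 by edgeR). Leaving out Hspb1 for its counts, the fitted changes lay between -0.13 and 0.18 (log2), with SEs of 0.15 to 0.53, and no member's groups were free of overlap, as 3.35% of genes were. In colon tissue no member was called, where 0.00744% of 13434 genes were called (1 gene, with 324 at an unadjusted p under 0.05). All 9 fitted changes were positive there, with a median of 0.39 beside 0 over all genes, but the sign of Hspb1, Hsp90aa1 and Hspd1 changed on leaving out single libraries (lowest -0.82, -0.07 and -0.06). The largest were Hspa1b at 1.34 ± 0.71 and Hspa1a at 1.18 ± 0.72 (adjusted p = 1 by edgeR for both), and they fell to 0.34 and 0.11 without ethanol replicate 3. That library held 407.8 CPM of the 2 genes together, beside 24.2 to 153 CPM in the other ethanol libraries and 42 to 118 CPM in controls. Its muscle markers stood at 3624 CPM and its Hoxb13 at 0.18 CPM, and what lay behind its level was not tested. Hspa8, with ethanol libraries above all controls, was at 0.64 ± 0.39 (adjusted p = 1, edgeR), where 3.28% of genes had groups that did not overlap.

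In jejunum tissue no member was called, nor was any gene (0% of 13434, with 1534 at an unadjusted p under 0.05 by edgeR). Hspe1 came nearest, at 1.43 ± 0.28 (adjusted p = 0.06639, edgeR), with 28.8 ± 4.39 CPM in controls (n = 3) and 72.8 ± 22.3 CPM after ethanol (n = 4). Its groups did not overlap, as was so for 7.41% of genes. DESeq2 called it at 1.28 (adjusted p = 0.02342), and the fit with donor number as a block gave 1.38 (adjusted p = 0.1163, edgeR). Hspd1 was at 0.70 ± 0.27 (adjusted p = 0.3176, edgeR) with overlapping groups. The control libraries of this comparison held 684906 to 1510057 counts outside Rn45s and the ethanol ones 2099739 to 7606668, and Rn45s took 76.3% to 84.3% of their counts beside 53.4% to 80.8% after ethanol; the part of this in the Hspe1 value was not tested. No member's ethanol effect was called as different between colon and jejunum tissue (0% of genes called, 894 at an unadjusted p under 0.05), Hspe1 being at -1.32 ± 0.36 (adjusted p = 0.5148, edgeR).

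**Figure D5:**
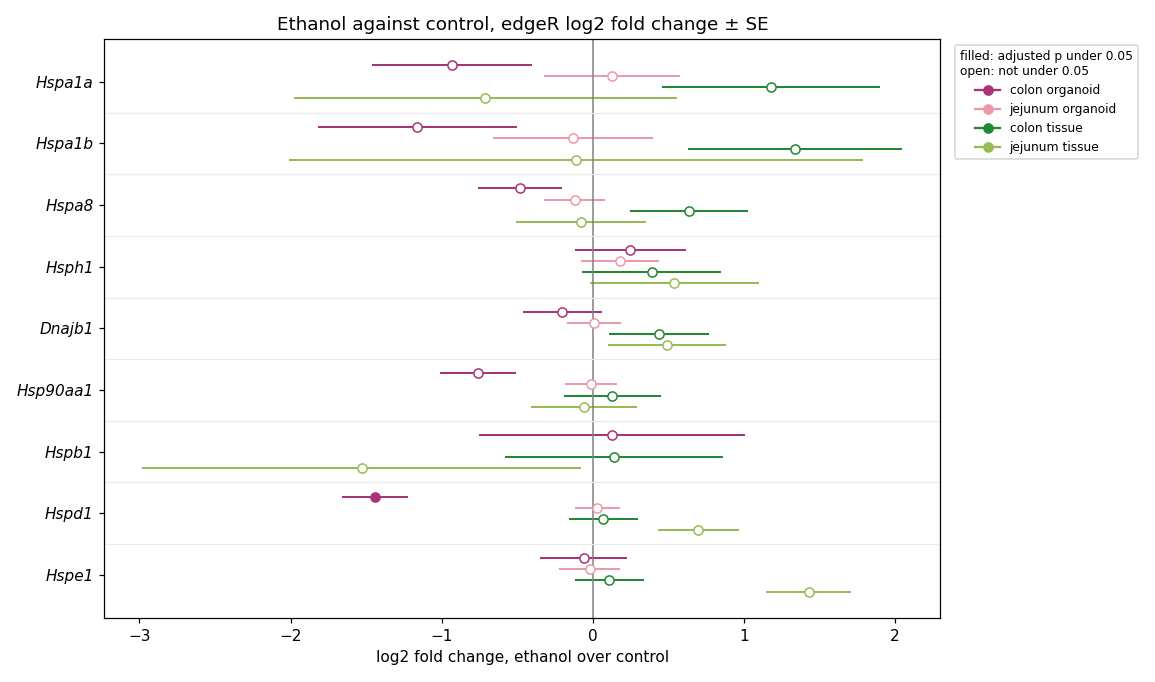
Log2 fold change of ethanol over control with its SE from edgeR, for each gene in colon organoids (purple), jejunum organoids (pink), colon tissue (dark green) and jejunum tissue (light green); filled points have an adjusted p under 0.05, and Hspb1 in jejunum organoids is left out because both groups held 2 counts. The only filled point is Hspd1 in colon organoids (-1.44), and the jejunum organoid points lie between -0.13 and 0.18.

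Organoids were then compared with the tissue of the same segment and treatment, in 1 fit of all 27 libraries. In jejunum Hspa8, Hspd1 and Hspe1 were higher in organoids. Hspa8 was 3.09 ± 0.41 and 3.03 ± 0.36 higher (control and ethanol, log2), Hspd1 2.88 ± 0.26 and 2.20 ± 0.21, and Hspe1 3.46 ± 0.29 and 1.99 ± 0.24. All 6 were called by edgeR (adjusted p from 5.555e-10 for control Hspe1 to 6.888e-07 for control Hspa8). Other contents differed as well: the summed smooth muscle markers were at most 0.98 CPM in jejunum organoids and 257 to 2161 CPM in jejunum tissue, and Rn45s took 19.7% to 30.2% and 53.4% to 84.3% of the counts. Their part in these differences was not tested. With Hspb1 in controls, 4 of 9 were called in control jejunum, where 51.3% of 14785 genes were called (21.6% higher and 29.7% lower in organoids), and 3 of 9 in ethanol jejunum, where 53.9% were (18.8% and 35.2%). Groups did not overlap for 5 members in control and 4 in ethanol jejunum, as for 54.5% and 54.7% of genes. With plain library sizes Dnajb1 in control jejunum was 0.95 (adjusted p = 0.01532, edgeR) in place of 0.56. The Hspb1 call, lower in organoids (adjusted p = 0.02365, edgeR), rested on 2 counts in organoids and 13 in tissue. It was lost without control jejunum organoid replicate 1, 2 or 3 (adjusted p = 0.05637, 0.05061 and 0.0528) or control jejunum tissue replicate 1 (adjusted p = 0.08029), and held without organoid replicate 4 (adjusted p = 0.03009). In colon 2 of 9 were called in controls and 2 of 9 after ethanol, where 46.2% (14.5% higher, 31.7% lower) and 33.4% (14.6% higher, 18.7% lower) of genes were called. Groups did not overlap for 3 and 4 members, as for 50.8% and 52.2% of genes. Hspa8 was 1.52 ± 0.39 higher in control colon organoids (adjusted p = 0.002749, edgeR), falling to 1.01 (adjusted p = 0.07505) without control colon organoid replicate 1, the library of 1641 CPM. Hspe1 differed by -0.87 ± 0.29 in controls and -0.90 ± 0.29 after ethanol (adjusted p = 0.01837 and 0.02033, edgeR), and Hspd1 by -0.94 ± 0.27 after ethanol (adjusted p = 0.0084). With plain library sizes Hspe1 in controls was -0.52 (adjusted p = 0.1336, edgeR), and Hspd1, at 0.44 ± 0.25 and not called, was 0.81 (adjusted p = 0.01195). The Hspe1 call in controls was lost without control colon organoid replicate 2 (-0.54, adjusted p = 0.217, edgeR) or control colon tissue replicate 2 or 4 (-0.67 and -0.69, adjusted p = 0.07862 and 0.07569). After ethanol both were lost without ethanol colon organoid replicate 2 (Hspd1 -0.70, adjusted p = 0.1457; Hspe1 -0.58, adjusted p = 0.2703, edgeR), and Hspe1 also without ethanol colon tissue replicate 2 (-0.78, adjusted p = 0.05066). Hspa1a after ethanol (-1.54 ± 0.77, adjusted p = 0.1228, edgeR) passed the threshold at -1.90 (adjusted p = 0.03063) without that same tissue library. Limma-voom made none of the 4 colon calls: Hspa8 was at 1.45 and Hspe1 at -0.83 in controls (adjusted p = 0.2014 and 0.4675), and Hspd1 at -0.89 and Hspe1 at -0.86 after ethanol (adjusted p = 0.07642 and 0.1159).

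The rest of the proteostasis network was followed through lists of genes. Their counts are to be read beside the shares of all genes called higher and lower in colon: 23.8% and 26.1% in control organoids, 25.6% and 20.3% in ethanol organoids, 25% and 17.1% in control tissue and 26% and 22.1% in ethanol tissue. The totals depend on the method. In control organoids the edgeR fit used here called 6436 genes, limma-voom 1032, the replicate block 1064 and DESeq2 6666. In ethanol organoids the totals were 5928, 5305, 902 and 6111, in the same order. The lists were counted by the edgeR fit only. Of 12 other genes of mitochondrial protein folding and import quality control, 7 were lower and 1 was higher in control colon than control jejunum organoids, with a median of -1.13 beside -0.10 over all genes (log2), and 10 were lower in the ethanol pair (median -1.52 beside 0.07). Hscb, which helps to build iron-sulphur clusters, was at -5.57 ± 0.81 and -3.88 ± 0.67 (adjusted p = 0.0001876 and 0.0007324, edgeR), whereas Grpel2, an exchange factor of mitochondrial HSP70, was the 1 gene higher, at 1.19 ± 0.20 in controls (adjusted p = 0.000578). In tissue 5 of the 12 were higher in control colon and none lower, with Trap1, the mitochondrial HSP90, at 2.19 ± 0.30 (adjusted p = 1.499e-05, edgeR). After ethanol 5 were higher and 3 lower. Of the 8 subunits of the cytosolic chaperonin TRiC, 6 were lower and 1 higher in control colon organoids than in jejunum ones, and 5 lower in the ethanol pair. Cct4 was at -1.51 ± 0.21 and -1.82 ± 0.22 (adjusted p = 0.0001465 and 5.541e-05, edgeR), and Cct6a was the 1 higher, at 0.81 ± 0.23 in controls (adjusted p = 0.012).

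Of 18 other genes linked to HSF1 or to small heat shock proteins, 4 were higher and 2 lower in control colon organoids, and 4 and 4 in the ethanol pair, shares under or close to those of all genes. Cryab, a small heat shock protein like Hspb1, averaged 24.6 CPM in control colon and 0.0612 CPM in control jejunum organoids, and Hspb8 averaged 14.1 and 0.112 CPM. Dnajb4, a J-domain gene related to Dnajb1, went the other way, at -3.66 ± 0.58 (adjusted p = 0.0003502, edgeR). Of 19 other partners of HSP70 and HSP90, 9 were higher and 3 lower in control colon organoids. Of 20 genes of the unfolded protein response of the endoplasmic reticulum, 11 were lower and 1 higher there (median -0.99 beside -0.10 over all genes), and 12 lower and 1 higher in the ethanol pair. Of 18 immediate early genes, which growth factors and other stimuli induce quickly, 10 were higher and none lower in control colon organoids, and 12 and none in the ethanol pair. The summed level of the 20 listed was 4038 to 5382 CPM in the 4 colon organoid libraries and 859 to 1349 CPM in the 8 jejunum organoid libraries. In tissue it was 1989 to 3141 CPM in colon and 1967 to 4154 CPM in jejunum, so that it did not separate the segments there as Hspa1a and Hspa1b did.

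In ethanol against control colon organoids edgeR also called chaperone genes outside the 9. These calls rest on the fit of all organoid libraries, with 2237 of 12922 genes called: with only the 4 colon organoid libraries fitted it called 0 of 10712 genes, and limma-voom called 0 of 12922. Hspa13, an HSP70 of the microsomal compartment, was at -2.28 ± 0.37 (adjusted p = 0.002019, edgeR), and Hspa4, a relative of Hsph1, at -0.79 ± 0.23 (adjusted p = 0.03508). The nucleotide exchange factors of mitochondrial HSP70, Grpel2 and Grpel1, were at -1.08 ± 0.25 and -0.83 ± 0.23 (adjusted p = 0.01247 and 0.02795, edgeR), and they were the 2 of 12 called in their list. Higher were Dnajb4 (2.21 ± 0.63, adjusted p = 0.03294, edgeR) and Hspa14, an HSP70 relative (1.44 ± 0.42, adjusted p = 0.03578). The median change of the 9 members was -0.48 beside 0.11 over all genes.

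Likeness within groups was described for Dnajb1 and Hspd1, as the Pearson correlation over 27 libraries of deviations from the group mean of log2(CPM + 1), among 7594 genes averaging at least 20 CPM. Nearest to Dnajb1 were Slc25a17 (r = 0.81), Ddah1 (0.79) and Larp4 (0.77), and nearest to Hspd1 were Rrp1 (0.78), Rps26 (0.76) and Nop2 (0.75), of which Rrp1 and Nop2 act in ribosome assembly. Spearman's rho was lower for each, at 0.78, 0.67 and 0.46 with Dnajb1 and 0.68, 0.6 and 0.61 with Hspd1, in the same order. The points share the library and its depth, and the genes were ranked by this value. The members themselves went together only loosely by this measure, with r = 0.36 for Hspd1 and Hspe1, 0.33 for Hspa1a and Hspa1b, and 0.55 for Hsp90aa1 and Hspd1.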

How the data were processed

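RNA of 27 libraries was profiled with a 3′ mRNA sequencing kit, per the labels' protocols. The deposited values are raw read counts per gene symbol in 1 table made by the authors, and no value column was left without a sample. The tools listed per the submitters' processing notes are Trimmomatic 0.32, BWA, HTSeq, limma and edgeR, with the build mm10. Their settings, the annotation and whether counting used strand are not given in the sources used here. Levels are CPM outside Rn45s. Orders and overlaps of groups use the same CPM, without TMM scaling, so they can differ from the fits. Fold changes come from edgeR 4.0.16 (R 4.3.3): TMM scaling on all genes, filterByExpr, robust quasi-likelihood fits and Benjamini-Hochberg adjustment over all genes kept, called under 0.05. The 12 organoid libraries, the 15 tissue libraries and, for organoid against tissue, all 27 were fitted together. Alternatives were plain library sizes, no filter, only the compared groups, donor number as a replicate block, limma-voom (limma 3.58.1), DESeq2 1.42.0, leaving out each library, and, chosen after seeing the data, leaving out both colon tissue libraries of number 1. The difference of the segment contrast between organoids and tissue was also added after seeing the data.

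The members, the gene lists and the rules were chosen with earlier results of these data known. Named are the 9 members, the 2 called genes with the highest and the 2 with the lowest fold change of a list in a comparison, marker lists as sums, and the 3 genes most like Dnajb1 and Hspd1. In jejunum tissue same-numbered control and ethanol libraries deviated together weakly (r of 0.136, 0.15 and 0.132 over genes). In no other comparison with 3 or more pairs did every pair exceed 0.1. Mice were given water or ethanol, so a number shared across treatments is not the same animal. Any pairing by number rests on the data alone and was not established. Tested on simulated counts, the ethanol comparison in colon organoids recovered 6.38% of 94 genes changed 2-fold and 54.3% of 92 changed 4-fold, and in colon tissue 21% of 100 and 97% of 100. The simulation gave all groups of a kind the same means apart from the changed genes, and all genes a single dispersion. These shares therefore do not give the power in the real data. Intervals and small counts cover counting error only. Positions are from GENCODE vM21 on the same build.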

Additional observations from a re-analysis of the deposited data

Results flagged for a closer look

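In 6 of 45 groups of 4 libraries or more, 1 library stood apart from the others by Dixon's criterion. For normally spread values chance gives this in about 1 of 20 groups. CPM need not be so spread, and where all other libraries hold 0 any count is flagged, so no excess is read from the share. Hspb1 did so in 5 groups. In colon tissue it was replicate 1 of both treatments, at 264.3 CPM in controls and 286 CPM after ethanol, the libraries that also held the most smooth muscle marker RNA. In jejunum organoids it was replicate 4 of both treatments, at 0.4345 CPM and 0.5818 CPM, where the value is 2 counts beside 0 in the other libraries. In ethanol jejunum tissue it was replicate 3, at 3.24 CPM. Hsp90aa1 stood apart in control colon tissue replicate 1, at 160.0 CPM.

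Effects that differed between groups by their own test in edgeR were the following. The ethanol effect on Hspd1 differed between colon and jejunum organoids by -1.47 (log2), which limma-voom did not call (-1.46, adjusted p = 0.688). The colon against jejunum difference differed between organoids and tissue in controls for Hspa8 (-1.56), Hspd1 (-2.44) and Hspe1 (-4.32), and after ethanol for Hspa8 (-2.50), Hspd1 (-3.13) and Hspe1 (-2.89). Limma-voom did not call Hspa8 in controls (-1.74, adjusted p = 0.1162).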

How the results depend on the processing

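Of 42 calls of a member in a comparison, none changed sign under any alternative. Among them are segment calls of Hspa1a, Hspa1b and Hspb1, genes that passed the filter only through colon libraries as stated above. Those calls, kept or lost, are no support. Plain library sizes lost 1 and gained 10, no filter lost 1, fitting only the compared groups lost 4 of 41 and gained 4, limma-voom lost 14, DESeq2 lost none and gained 9, and leaving out both colon tissue libraries of number 1 lost none of 21 and gained 2. Plain library sizes moved the median of all genes by up to 0.555 (colon against jejunum, ethanol tissue), and by -0.205 for ethanol in colon organoids. Members called for ethanol in colon organoids were 1, and 2 with plain library sizes, 0 with only the compared groups, 0 with limma-voom and 2 with DESeq2. Limma-voom gave 3 in place of 6 for colon against jejunum in control organoids, 3 in place of 5 in control tissue, 0 in place of 1 for the organoid difference in ethanol effect, and 0 in place of 2 for organoid against tissue in both colon comparisons, where fitting only the compared groups gave 1 and 1. DESeq2 gave 1 in place of 0 for ethanol in jejunum tissue, and plain library sizes gave 5 in place of 3 for the difference of the segment contrast after ethanol. Leaving out 1 library gave 1 to 2 members for ethanol in colon organoids and for the organoid difference in ethanol effect, 0 to 0 for ethanol in jejunum organoids, in both tissues and for their difference, 5 to 6 for the segments in control and in ethanol organoids, 4 to 6 in control tissue and 6 to 7 in ethanol tissue. For organoid against tissue it gave 1 to 2 in control colon, 0 to 2 in ethanol colon, 3 to 4 in control jejunum and 3 to 3 in ethanol jejunum, and for the difference of the segment contrast 2 to 4 and 3 to 4. With 1 library left in a group, it was assumed to vary like the other groups. The causes of these changes were not tested.

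The replicate block lost 6 calls and gained 2. Members called between the segments were 3 in place of 6 in control and in ethanol organoids. Lost in both were Hsph1 and Hspa1a (4.30 and 3.92, with no p given, since Hspa1a passed the filter only through colon libraries). Also lost were Hspd1 in controls (-0.80, adjusted p = 0.1434) and Hspa1b after ethanol (2.88, adjusted p = 0.09144), all by edgeR. In tissue Hsph1 was gained (1.63 and 1.03). These libraries share a treatment and a donor number, and whether that means the same mouse was not established. For ethanol in jejunum tissue, where same-numbered libraries deviated together weakly, the block changed no call. Pairs correlated between -0.154 and 0.595 in colon tissue and between -0.19 and 0.349 in jejunum organoids for ethanol against control.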

Other observations

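In the fit of all organoid libraries edgeR also called genes outside the 9 for ethanol in colon organoids, but none of these calls was made when only the 4 colon organoid libraries were fitted (0 of 10712 genes called) or by limma-voom (0 of 12922). Of 20 genes of the unfolded protein response, Herpud1, a membrane component of degradation from the endoplasmic reticulum, was at 1.62 and Pdia3, a protein disulphide isomerase, at 0.72 (log2, called higher by edgeR), and Creld2, also of the endoplasmic reticulum, was at -1.52 (called lower). Of 18 immediate early genes tested, Klf4 (2.23) and Jund (1.65) were among 3 called higher, and Fosb (-4.95) and Nr4a1 (-2.97) were the 2 called lower. In jejunum organoids and in both tissues no gene of the 6 lists was called for ethanol.

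Trap1, the mitochondrial HSP90, followed Hspd1 and Hspe1 in the comparison of organoids and tissue. It averaged 108 CPM in control jejunum organoids and 6.38 CPM in control jejunum tissue, a difference of 3.70 ± 0.36 (log2, adjusted p = 3.557e-09, edgeR), and 105 and 12.7 CPM after ethanol. The small heat shock gene Hspb8 went the other way, averaging 0.112 CPM in control jejunum organoids and 47.7 CPM in control jejunum tissue.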
